A study of Homo sapiens with 6 samples.

Results

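Glycerolipid metabolism genes were taken as the rows whose deposited KEGG annotation lists that pathway, without the alcohol dehydrogenase, aldo-keto reductase and aldehyde dehydrogenase genes, whose names begin with ADH, AKR or ALDH. The pathway was listed for 53 of the 29153 genes, and 8 of these were left out by name, which left 45 genes. Of the 45 genes, 35 had a mean of at least 0.5 FPKM (fragments set relative to transcript length and library size) over the 6 libraries and were tested, and 10 were below that level. Glycerolipids are fats built on a glycerol backbone. Glycerol enters the pathway as glycerol-3-phosphate, acyltransferases add fatty acids to give lysophosphatidic and then phosphatidic acid, a phosphatase turns this into diacylglycerol, and a last acylation gives triacylglycerol. Kinases return diacylglycerol to phosphatidic acid, and lipases release the fatty acids again. In liver cells these enzymes serve the storage of fat in lipid droplets and its export in lipoproteins.

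The libraries came from HepG2 cells, a long-established line from a human liver tumour, given lentivirus with a control hairpin (sh-NC, genotype Control) or with a hairpin against the long noncoding RNA LINC01977 (sh-LINC01977, genotype LINC01977 knockdown, coded sh3) and collected after 72 h. The question was which genes differ once LINC01977 is reduced. Each group had 3 libraries of 1 cell line, the study selected its lines with puromycin, and only 1 hairpin was sequenced. Nothing states that the libraries came from separate cultures, so p-values measure the spread between these libraries, which may be technical.

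The total counts were 49929024 to 60441515 per library. Correlations of log2 CPM (counts set relative to library size) were 0.978 to 0.981 within groups and 0.969 to 0.973 between groups. LINC01977 (ENSG00000262772, hg38 chr17:79823452-79827704, plus strand) had 4, 0 and 16 counts in sh-NC and 0, 0 and 4 in sh-LINC01977. A reduction was not detectable at this depth (p = 0.7 in the two-sided exact permutation test, where 3 against 3 allows no p below 0.1). The paper reports that it checked the knockdown in its cell lines, HepG2 among them, by qRT-PCR. All 9 HepG2 liver markers were present, and 7 of them, albumin, FGB, APOA1, TF, HNF4A, AFP and SERPINA1, were lower in sh-LINC01977 (adjusted p under 0.05). These were 77.8% of the markers, beside 8.07% of all tested genes. TTR and GPC3 did not pass, with log2 fold changes of -0.17 and 0.07 (edgeR adjusted p of 0.322 and 0.524). The summed level of the 9 markers was 4470 to 4890 FPKM in sh-NC and 3200 to 3260 FPKM in sh-LINC01977. Within it, albumin had a mean of 1456 FPKM in sh-NC and 713 FPKM in sh-LINC01977. The part of this shift in the lipid gene results was not tested. Of 10 markers of other liver cell types, 7 were listed, with a sum of 17.2 to 18.4 FPKM in sh-NC and 16.5 to 19.2 FPKM in sh-LINC01977. This sum was nearly all ACTA2 and LYVE1, without which it was at most 0.43 FPKM in any library. In bulk RNA, fewer cells of a kind and less RNA per cell cannot be told apart.

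Of the 35 tested glycerolipid genes 11 passed the test, and all of these but DGKA were lower with the LINC01977 hairpin. Of the 10 lower genes, GK, GLYCTK and TKFC phosphorylate glycerol, glycerate or 3-carbon sugars. The others were the acyltransferases GPAM and MOGAT2, the phosphatases LPIN2 and PLPP3, the lipid kinases DGKK and DGKZ, and PNPLA3. DGKA is also a lipid kinase. The 10 lower genes made up 28.6% of the tested members, and 8.07% of all 13452 tested genes were lower. The 1 higher member made up 2.86%, and 7.05% of all tested genes were higher. The called genes together made up 31.4% of the tested members, against 15.1% of all tested genes (edgeR quasi-likelihood test, Benjamini-Hochberg adjusted p under 0.05 over all tested genes). The other 24 tested members did not pass. Without any 1 library, 5 to 7 members were lower, beside 4.66% to 5.49% of all tested genes.

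The changes were moderate in size. At a fold change of at least 2 with an unadjusted P of at most 0.05, the thresholds of the study's methods, 1 member was lower and 0 were higher, beside 2.60% of all tested genes in either direction. That member, AGPAT3, did not pass after adjustment. The libraries of both groups did not overlap in 16 members (45.7%), of which 13 were lower and 3 higher in sh-LINC01977, and the same held for 37.1% of all tested genes. The median log2 fold change of the members was -0.04, beside -0.001 over all tested genes, with 19 members below 0 and 16 above. With library totals in place of TMM scaling this median was 0.02, and that of all tested genes was 0.07, so its sign changed with the scaling.

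**Figure D1:**
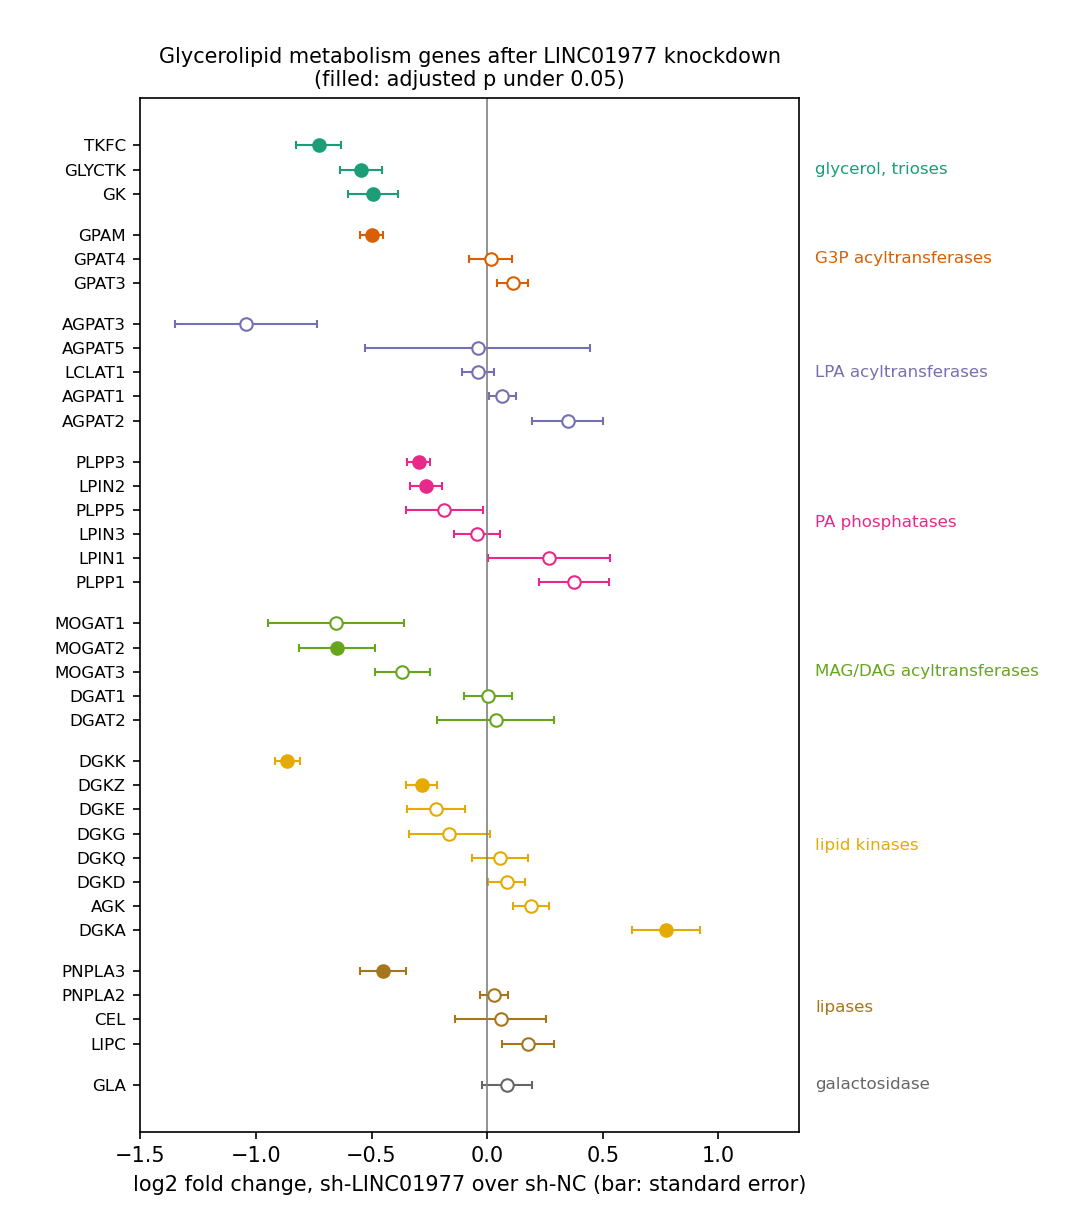
Log2 fold change (sh-LINC01977 over sh-NC, x axis) with its standard error for each of the 35 tested glycerolipid genes, grouped by role. Filled points mark the 10 genes that were lower and the 1 that was higher at an adjusted p under 0.05, and all 3 genes of the glycerol and triose group lie left of 0.

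Levels of different genes can be set side by side only per length, in FPKM. The highest mean levels over the 6 libraries were 27.3 FPKM for AGPAT1, 22.6 for GLA, 19.3 for GK, 16.7 for GPAM and 14.6 for LPIN2, and the lowest tested was MOGAT1 at 0.819 FPKM. In all, 8 tested members were above 10 FPKM, and 4 of these, GK, GPAM, LPIN2 and PLPP3, were among the called genes. The sum over all members was 264, 262 and 265 FPKM in sh-NC and 253, 237 and 254 FPKM in sh-LINC01977. Every sh-LINC01977 sum was below every sh-NC sum. These sums include the 10 genes called lower, so they do not show a fall across the pathway. By role, the mean sum was higher in sh-LINC01977 for the lysophosphatidic acid acyltransferases (43.9 FPKM in sh-NC and 45.5 in sh-LINC01977). It was also higher for the lipases (26.1 and 27.4 FPKM) and the galactosidase (21.4 and 23.8 FPKM), and lower for the other roles.

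The 3 genes of the glycerol and triose group, GK, GLYCTK and TKFC, were all lower in sh-LINC01977. GK, glycerol kinase, which makes glycerol-3-phosphate from glycerol (ENSG00000198814, chrX:30653359-30731456, plus strand), had 153, 136 and 159.8 CPM in sh-NC and 106, 93.0 and 120.1 CPM in sh-LINC01977. The lowest sh-NC library was above the highest sh-LINC01977 library, and the level fell from 149.6 ± 12.3 to 106 ± 13.6 CPM (SD, n = 3), a log2 fold change of -0.49 (SE 0.106, edgeR adjusted p = 0.0256). The call was lost without sh-NC 1 or 3 or sh-LINC01977 1 or 2, with log2 fold changes of -0.48, -0.44, -0.49 and -0.41 and adjusted p of 0.0602 to 0.0781.

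GLYCTK, glycerate kinase, which phosphorylates glycerate (ENSG00000168237, chr3:52287089-52293476, plus strand), had 39.0, 36.2 and 33.9 CPM in sh-NC and 23.0, 27.1 and 24.5 CPM in sh-LINC01977. The groups were well apart, with means of 36.4 ± 2.53 and 24.9 ± 2.07 CPM (SD, n = 3) and a log2 fold change of -0.55 (SE 0.0896, edgeR adjusted p = 0.0101). TKFC, which phosphorylates dihydroxyacetone and glyceraldehyde (ENSG00000149476, chr11:61333210-61353295, plus strand), had 76.2, 83.4 and 84.2 CPM in sh-NC and 55.8, 45.2 and 46.0 CPM in sh-LINC01977. It fell 1.66-fold, from 81.3 ± 4.44 to 49.0 ± 5.90 CPM (SD, n = 3; log2 fold change -0.73, SE 0.0961, edgeR adjusted p = 0.00481). The summed level of the 3 genes was 39.9, 38.0 and 41.1 FPKM in sh-NC and 28.4, 26.1 and 30.5 FPKM in sh-LINC01977.

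Both GLYCTK and TKFC share genomic positions with genes on the other strand, and whether the counting used strand is not given in the sources used here. WDR82, opposite GLYCTK, had a mean count of 9056.2 and a log2 fold change of 0.06 (edgeR adjusted p = 0.747). DDB1, opposite TKFC, had a mean count of 19671 and was itself lower, with a log2 fold change of -0.44 (edgeR adjusted p = 0.00443), so reads of DDB1 and TKFC cannot be told apart where they overlap without strand.

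Glycerol-3-phosphate acyltransferases place the first fatty acid on the backbone, and 1 of 3 tested, GPAM, was lower. GPAM, the mitochondrial enzyme (ENSG00000119927, chr10:112149864-112215377, minus strand), had 233, 232 and 245 CPM in sh-NC and 159, 172 and 172 CPM in sh-LINC01977. The replicates of each group lay close together and far from the other group, with means of 237 ± 7.28 and 167 ± 7.53 CPM (SD, n = 3), a log2 fold change of -0.50 (SE 0.0505) and an edgeR adjusted p of 0.00197. GPAT3, an enzyme of the endoplasmic reticulum, had 40.5, 40.3 and 44.3 CPM in sh-NC and 44.3, 47.3 and 43.4 CPM in sh-LINC01977, with overlapping groups (log2 fold change 0.11, SE 0.0665, edgeR adjusted p = 0.310). GPAT4, also of the endoplasmic reticulum, had 78.1 ± 3.01 and 79.0 ± 9.87 CPM (SD, n = 3; log2 fold change 0.02, SE 0.0943, edgeR adjusted p = 0.934).

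GPAM took a smaller share of the family's summed FPKM. The share was 52.2%, 53.0% and 52.4% in sh-NC and 42.7%, 43.1% and 42.4% in sh-LINC01977. The family sum itself was 35.8, 35.6 and 38.2 FPKM in sh-NC and 31.5, 33.3 and 34.8 FPKM in sh-LINC01977, with every sh-LINC01977 sum below every sh-NC sum. This sum includes GPAM, and the other tested genes of the family were not lower. The mean level of GPAT3 was 9.53 FPKM in sh-NC and 10.8 FPKM in sh-LINC01977, and that of GPAT4 was 7.81 and 8.26 FPKM.

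The bases before the transcription start are shown for some of the 10 lower members, the glycerol and triose genes GK, GLYCTK and TKFC and the acyltransferase GPAM. Whether these genes share a control was not tested. Sequences are from RefSeq (GRCh38.p14), 250 bases ending just before the annotated start, 5′ to 3′ on the gene's strand, and a RefSeq entry was matched for 32 of the 45 members. The windows are chrX:30653173-30653422 (plus strand) for GK, chr3:52289816-52290065 (plus) for GLYCTK, chr11:61332978-61333227 (plus) for TKFC and chr10:112183766-112184015 (minus) for GPAM. Those of GLYCTK and GPAM lie wholly inside the deposited gene intervals and those of GK and TKFC reach partly into them, because the RefSeq starts and the deposited starts differ. Capitals mark a match, on either strand, to any of the 5 motifs searched, which in these windows were the GC box (GGGCGG) and the CCAAT box.
GK: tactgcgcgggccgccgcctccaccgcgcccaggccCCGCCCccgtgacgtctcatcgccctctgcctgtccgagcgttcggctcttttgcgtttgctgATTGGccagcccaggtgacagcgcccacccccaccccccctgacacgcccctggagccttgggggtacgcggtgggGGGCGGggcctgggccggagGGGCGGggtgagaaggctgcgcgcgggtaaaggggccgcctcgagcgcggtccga
GLYCTK: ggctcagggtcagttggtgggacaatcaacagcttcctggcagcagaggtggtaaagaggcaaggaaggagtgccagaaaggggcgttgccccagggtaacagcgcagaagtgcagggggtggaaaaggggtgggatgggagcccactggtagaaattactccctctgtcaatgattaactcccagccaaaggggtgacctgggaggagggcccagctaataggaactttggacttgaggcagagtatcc
TKFC: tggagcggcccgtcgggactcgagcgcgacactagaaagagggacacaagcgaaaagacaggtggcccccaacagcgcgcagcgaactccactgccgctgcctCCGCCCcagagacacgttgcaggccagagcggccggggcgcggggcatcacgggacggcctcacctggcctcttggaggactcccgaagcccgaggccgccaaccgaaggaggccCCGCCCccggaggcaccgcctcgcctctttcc
GPAM: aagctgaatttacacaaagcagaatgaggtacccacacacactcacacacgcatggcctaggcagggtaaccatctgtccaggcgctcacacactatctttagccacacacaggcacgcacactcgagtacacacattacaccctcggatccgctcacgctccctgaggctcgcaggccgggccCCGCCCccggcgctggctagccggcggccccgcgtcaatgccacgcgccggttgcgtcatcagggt

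The GK window held 3 GC boxes and 1 CCAAT match, that of TKFC 2 GC boxes, that of GPAM 1 GC box, and that of GLYCTK none of the motifs searched. The GC content was 74.8% for GK, 70.8% for TKFC, 62.0% for GPAM and 56.4% for GLYCTK. The motifs were read on both strands, and no 2 matches overlapped in the windows shown. A GC box was present in 42.6% of 35116 RefSeq promoters, in 20 of the 32 matched members and in 6 of the 8 matched members that were lower. CCAAT was in 32.0% of all promoters, 14 matched members and 2 lower members, and the TATA box, with the letters TATAAA, in 10.7%, 2 and 0. The E-box, with the letters CACGTG, was in 6.34% of all promoters, 2 matched members and 1 lower member, and the motif of the hepatocyte factor HNF4A, with the letters CAAAGTCCA, in 0.325%, 0 and 0. The percentages over all promoters were counted per promoter entry, while a member was counted once if any of its entries matched. The member counts are therefore not on the same basis as the percentages, and enrichment was not tested. A match describes the letters of the window and not a bound site.

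Lysophosphatidic acid acyltransferases add the second fatty acid, and 0 of 5 tested passed after adjustment in edgeR, while 1, AGPAT3, had an unadjusted p under 0.05 and was also called by DESeq2. AGPAT2, the main such enzyme of fat storage, had 7.95, 7.58 and 9.51 CPM in sh-NC and 12.4, 10.2 and 9.26 CPM in sh-LINC01977. The groups overlapped, with a log2 fold change of 0.35 (SE 0.153, edgeR adjusted p = 0.180). AGPAT1, the member with the highest level, had 119 ± 3.09 and 125 ± 7.72 CPM (SD, n = 3; log2 fold change 0.07, edgeR adjusted p = 0.493).

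AGPAT3 and AGPAT5 turned on single libraries. AGPAT3 (ENSG00000160216, chr21:43865186-43986536) had 101.5, 48.8 and 44.8 CPM in sh-NC and 32.6, 29.8 and 32.3 CPM in sh-LINC01977. All sh-LINC01977 libraries were below all sh-NC libraries, but sh-NC 1 stood far above its group (log2 fold change -1.04, SE 0.309, unadjusted p = 0.0127, edgeR adjusted p = 0.0692). Without sh-NC 1 the log2 fold change was -0.57 and the adjusted p 0.0166. AGPAT5 had 26.5, 72.3 and 25.6 CPM in sh-NC and 60.8, 26.2 and 33.8 CPM in sh-LINC01977. One library of each group was high, and the log2 fold change was -0.04 (SE 0.488, edgeR adjusted p = 0.966). It was 0.63 without sh-NC 2 and -0.46 without sh-LINC01977 1, with no call in either fit.

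The spread between replicates was otherwise like that of other genes. The median coefficient of variation of CPM over the tested members was 8.67% in sh-NC and 9.37% in sh-LINC01977, beside 8.42% and 8.02% over all tested genes. It exceeded 25% in sh-NC for AGPAT5 (64.4%), AGPAT3 (48.7%), LPIN1 (35.1%) and DGAT2 (26.1%), and in sh-LINC01977 for AGPAT5 (45.2%), MOGAT1 (30.0%) and DGAT2 (26.1%).

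**Figure D2:**
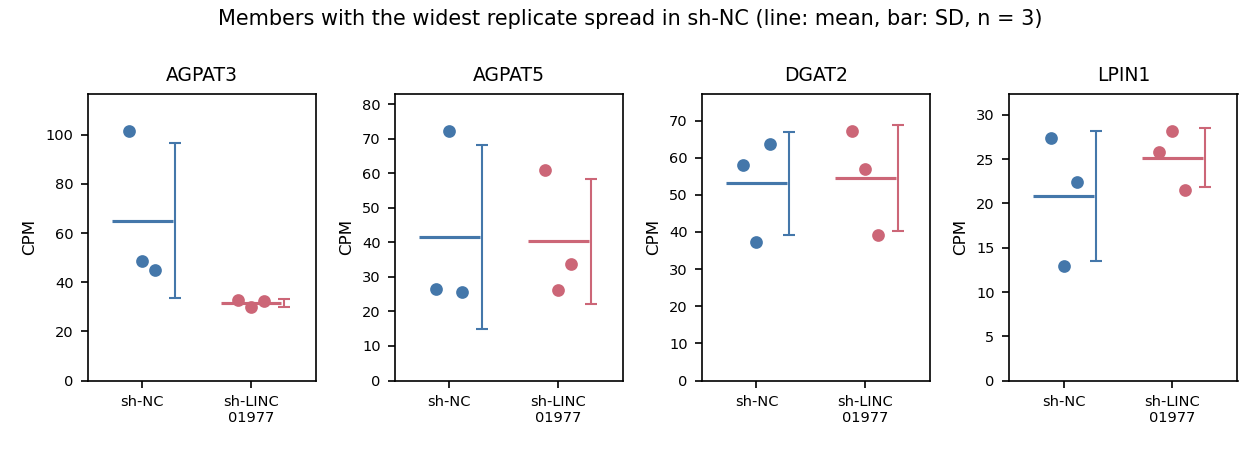
CPM in each library (points), mean (line) and SD (bar, n = 3) for AGPAT3, AGPAT5, DGAT2 and LPIN1 in sh-NC and sh-LINC01977, y axes from 0. One sh-NC library of AGPAT3 lies at 101.5 CPM, above the other two near 48.8 and 44.8, and AGPAT5 has 1 high library in each group.

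Phosphatidic acid phosphatases release diacylglycerol, and 2 of 6 tested were lower. PLPP3, a membrane phosphatase that also acts on lysophosphatidic acid (ENSG00000162407, chr1:56494747-56645301, minus strand), had 98.2, 95.7 and 101.9 CPM in sh-NC and 79.6, 79.6 and 81.7 CPM in sh-LINC01977. The groups did not overlap and were tight, at 98.6 ± 3.12 and 80.3 ± 1.20 CPM (SD, n = 3), a log2 fold change of -0.30 (SE 0.0487, edgeR adjusted p = 0.0101). LPIN2, a liver lipin, which converts phosphatidic acid to diacylglycerol (ENSG00000101577, chr18:2916994-3013315, minus strand), had 128, 144 and 128 CPM in sh-NC and 112, 105 and 116 CPM in sh-LINC01977. It fell by 0.27 on the log2 scale (SE 0.0697, edgeR adjusted p = 0.0487), and leaving out any 1 library ended the call, with log2 fold changes of -0.30 to -0.21 and adjusted p of 0.0709 to 0.132.

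The other lipins and phosphatases did not pass. LPIN1 had 27.4, 12.9 and 22.4 CPM in sh-NC and 25.8, 28.2 and 21.6 CPM in sh-LINC01977, with sh-NC 2 low (log2 fold change 0.27, SE 0.264, edgeR adjusted p = 0.539). Without sh-NC 2 the log2 fold change was 0.02. PLPP1 had 19.5, 14.7 and 21.3 CPM in sh-NC and 23.0, 22.4 and 26.7 CPM in sh-LINC01977. All its sh-LINC01977 libraries were above all sh-NC libraries, yet the log2 fold change of 0.38 (SE 0.151) had an edgeR adjusted p of 0.149. LPIN3 had a log2 fold change of -0.04 (edgeR adjusted p = 0.802), and PLPP5 one of -0.19 (edgeR adjusted p = 0.495). LPIN2 made up 72.4% to 77.8% of the lipins' summed FPKM in sh-NC and 69.4% to 71.8% in sh-LINC01977.

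The last acylations are done by the monoacylglycerol and diacylglycerol acyltransferases, and 1 of 5 tested was lower. MOGAT2, which turns monoacylglycerol into diacylglycerol (ENSG00000166391, chr11:75717819-75732958, plus strand), had 26.5, 24.3 and 18.6 CPM in sh-NC and 15.7, 16.1 and 12.4 CPM in sh-LINC01977. It fell 1.57-fold, from 23.1 ± 4.08 to 14.7 ± 2.01 CPM (SD, n = 3; log2 fold change -0.65, SE 0.164, edgeR adjusted p = 0.0429). The call was lost without sh-NC 1 or 2 or without any 1 sh-LINC01977 library, with log2 fold changes of -0.72 to -0.54 and adjusted p of 0.0815 to 0.119.

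The other 2 MOGAT genes also had every sh-LINC01977 library below every sh-NC library, without a call. MOGAT1 had 1.51, 1.13 and 1.29 CPM in sh-NC and 0.96, 0.99 and 0.54 CPM in sh-LINC01977 (log2 fold change -0.65, SE 0.295, edgeR adjusted p = 0.191). MOGAT3 had 18.9, 20.3 and 16.8 CPM in sh-NC and 16.1, 14.5 and 12.9 CPM in sh-LINC01977 (log2 fold change -0.37, SE 0.118, edgeR adjusted p = 0.0866). The 3 MOGAT genes made up 51.6%, 55.0% and 43.9% of the summed FPKM of MOGAT and DGAT genes in sh-NC and 39.9%, 43.9% and 40.6% in sh-LINC01977. The highest sh-LINC01977 share and the lowest sh-NC share both round to 43.9%, so any gap between the groups was smaller than the rounding.

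The enzymes of the final step to triacylglycerol gave no call. DGAT1 had 33.0, 34.9 and 36.9 CPM in sh-NC and 39.0, 30.3 and 35.8 CPM in sh-LINC01977 (log2 fold change 0.00, SE 0.104, edgeR adjusted p = 0.986). DGAT2 had 58.1, 37.4 and 63.7 CPM in sh-NC and 67.2, 57.0 and 39.1 CPM in sh-LINC01977. One library of each group was low, and the log2 fold change was 0.04 (SE 0.254, edgeR adjusted p = 0.942). It was -0.16 without sh-NC 2, the low library of its group, and 0.23 without sh-LINC01977 3, the low library of the other, and -0.14 without sh-LINC01977 1, with no call in any of these fits.

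Of 8 lipid kinases tested, 2 were lower and 1 higher. Diacylglycerol kinases turn diacylglycerol, a signalling lipid, into phosphatidic acid. DGKK (ENSG00000274588, chrX:50365409-50470738, minus strand) had 80.6, 79.3 and 84.8 CPM in sh-NC and 45.6, 44.4 and 44.5 CPM in sh-LINC01977. The groups were far apart with little spread, at 81.5 ± 2.88 and 44.8 ± 0.65 CPM (SD, n = 3), which made it the member with the lowest adjusted p (log2 fold change -0.86, SE 0.0528, edgeR adjusted p = 5.48e-04). DGKZ (ENSG00000149091, chr11:46332905-46380554, plus strand) had 49.6, 44.4 and 43.9 CPM in sh-NC and 37.6, 38.0 and 37.7 CPM in sh-LINC01977. Its groups were close but did not overlap (log2 fold change -0.28, SE 0.0661, edgeR adjusted p = 0.0336), and leaving out any 1 library ended the call, with log2 fold changes of -0.31 to -0.22 and adjusted p of 0.0559 to 0.0960.

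DGKA was the only higher glycerolipid gene that passed the test in edgeR. DGKA (ENSG00000065357, chr12:55927319-55954027, plus strand) had 9.60, 7.13 and 7.58 CPM in sh-NC and 15.5, 12.9 and 13.1 CPM in sh-LINC01977. The level was 1.71-fold higher in sh-LINC01977, at 13.9 ± 1.44 against 8.10 ± 1.32 CPM (SD, n = 3; log2 fold change 0.77, SE 0.148, edgeR adjusted p = 0.0170). The call was lost without sh-NC 2 or 3 or sh-LINC01977 1, with log2 fold changes of 0.69, 0.73 and 0.69 and adjusted p of 0.0533 to 0.0559. PYM1, which overlaps DGKA on the other strand, had a mean count of 2190.7 and a log2 fold change of 0.09. Without strand, reads of PYM1 and DGKA cannot be told apart where they overlap.

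The makeup of the kinase family differed between the groups. DGKK made up 40.1%, 39.8% and 42.7% of the diacylglycerol kinases' summed FPKM in sh-NC and 26.8%, 28.5% and 27.5% in sh-LINC01977. DGKA made up 3.39%, 2.52% and 2.70% in sh-NC and 6.46%, 5.93% and 5.71% in sh-LINC01977. DGKD, whose own log2 fold change was 0.09 (edgeR adjusted p = 0.517), made up 21.2%, 20.7% and 19.4% in sh-NC and 27.8%, 25.7% and 26.2% in sh-LINC01977. The family sum was 21.3, 21.5 and 21.4 FPKM in sh-NC and 19.1, 17.2 and 18.4 FPKM in sh-LINC01977. Without DGKK it was 12.7, 12.9 and 12.3 FPKM in sh-NC and 14.0, 12.3 and 13.4 FPKM in sh-LINC01977, and the groups overlapped. A share also moves when another member of the family moves.

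**Figure D3:**
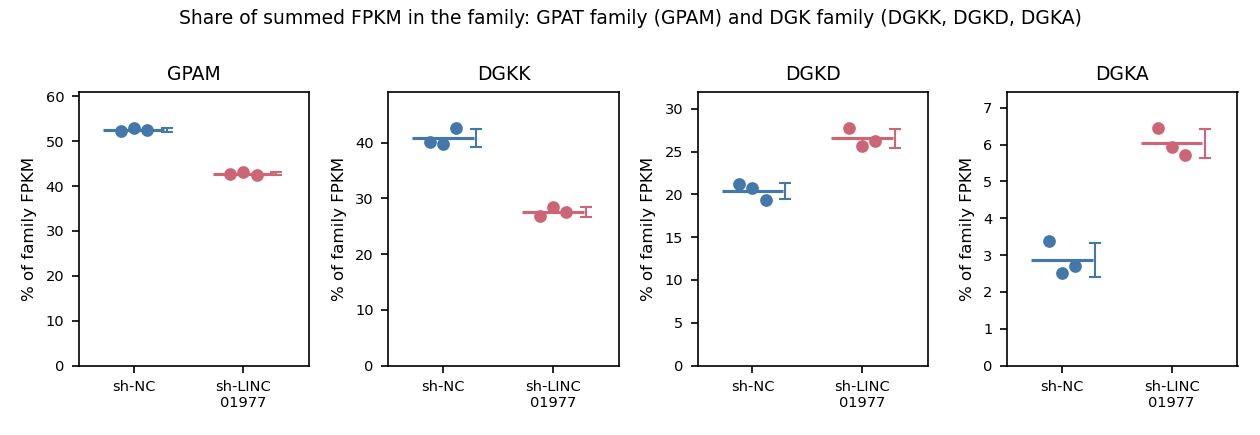
Share of the family's summed FPKM (percent, y axis from 0) in each library (points), with mean (line) and SD (bar, n = 3), for GPAM among the glycerol-3-phosphate acyltransferases and for DGKK, DGKD and DGKA among the diacylglycerol kinases. GPAM and DGKK take smaller shares in every sh-LINC01977 library than in any sh-NC library, and DGKD and DGKA take larger ones.

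The bases before the DGKK start are shown as those of the member with the lowest adjusted p (RefSeq, GRCh38.p14, chrX:50470826-50471075, minus strand, 66.0% GC). Capitals mark the matches to the motifs named above, which here were 2 GC boxes.
DGKK: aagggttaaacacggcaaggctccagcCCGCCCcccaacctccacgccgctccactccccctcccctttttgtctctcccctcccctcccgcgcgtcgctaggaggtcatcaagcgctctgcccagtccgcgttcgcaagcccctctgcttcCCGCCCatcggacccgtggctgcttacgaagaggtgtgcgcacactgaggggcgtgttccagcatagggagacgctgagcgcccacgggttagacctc

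The remaining kinases did not pass. AGK, the acylglycerol kinase of mitochondria, had 29.6 ± 2.20 CPM in sh-NC and 33.7 ± 1.56 CPM in sh-LINC01977 (SD, n = 3), with all sh-LINC01977 libraries above all sh-NC libraries (log2 fold change 0.19, SE 0.0786, edgeR adjusted p = 0.162). The log2 fold change was -0.22 for DGKE, -0.16 for DGKG and 0.06 for DGKQ, and the edgeR adjusted p was 0.285, 0.575 and 0.795.

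Of the lipases 4 were tested and 1, PNPLA3, was lower. PNPLA3, a lipid droplet protein with lipase and acyltransferase activity (ENSG00000100344, chr22:43923739-43964488, plus strand), had 18.9, 18.8 and 16.1 CPM in sh-NC and 13.9, 13.1 and 12.3 CPM in sh-LINC01977. It fell 1.37-fold, from 17.9 ± 1.55 to 13.1 ± 0.793 CPM (SD, n = 3; log2 fold change -0.45, SE 0.101, edgeR adjusted p = 0.0292). The call was lost without sh-NC 1 or 2 or without any 1 sh-LINC01977 library, with log2 fold changes of -0.49 to -0.41 and adjusted p of 0.0545 to 0.0908. SAMM50, which overlaps PNPLA3 on the same strand, had a mean count of 4564.5 and a log2 fold change of -0.06. Where the 2 genes overlap, strand does not tell their reads apart.

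PNPLA2, the lipase that starts the breakdown of stored triacylglycerol, had 62.4, 56.3 and 58.2 CPM in sh-NC and 62.6, 58.3 and 59.5 CPM in sh-LINC01977. The groups overlapped throughout (log2 fold change 0.03, edgeR adjusted p = 0.792). LIPC, the secreted hepatic lipase, had 56.6, 44.3 and 55.9 CPM in sh-NC and 54.9, 58.1 and 64.2 CPM in sh-LINC01977 (log2 fold change 0.18, SE 0.112, edgeR adjusted p = 0.336). The summed lipases had 27.3, 24.9 and 26.1 FPKM in sh-NC and 27.6, 26.1 and 28.5 FPKM in sh-LINC01977, with overlapping groups. GLA, the lysosomal galactosidase, had a log2 fold change of 0.09 (edgeR adjusted p = 0.634).

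**Figure D4:**
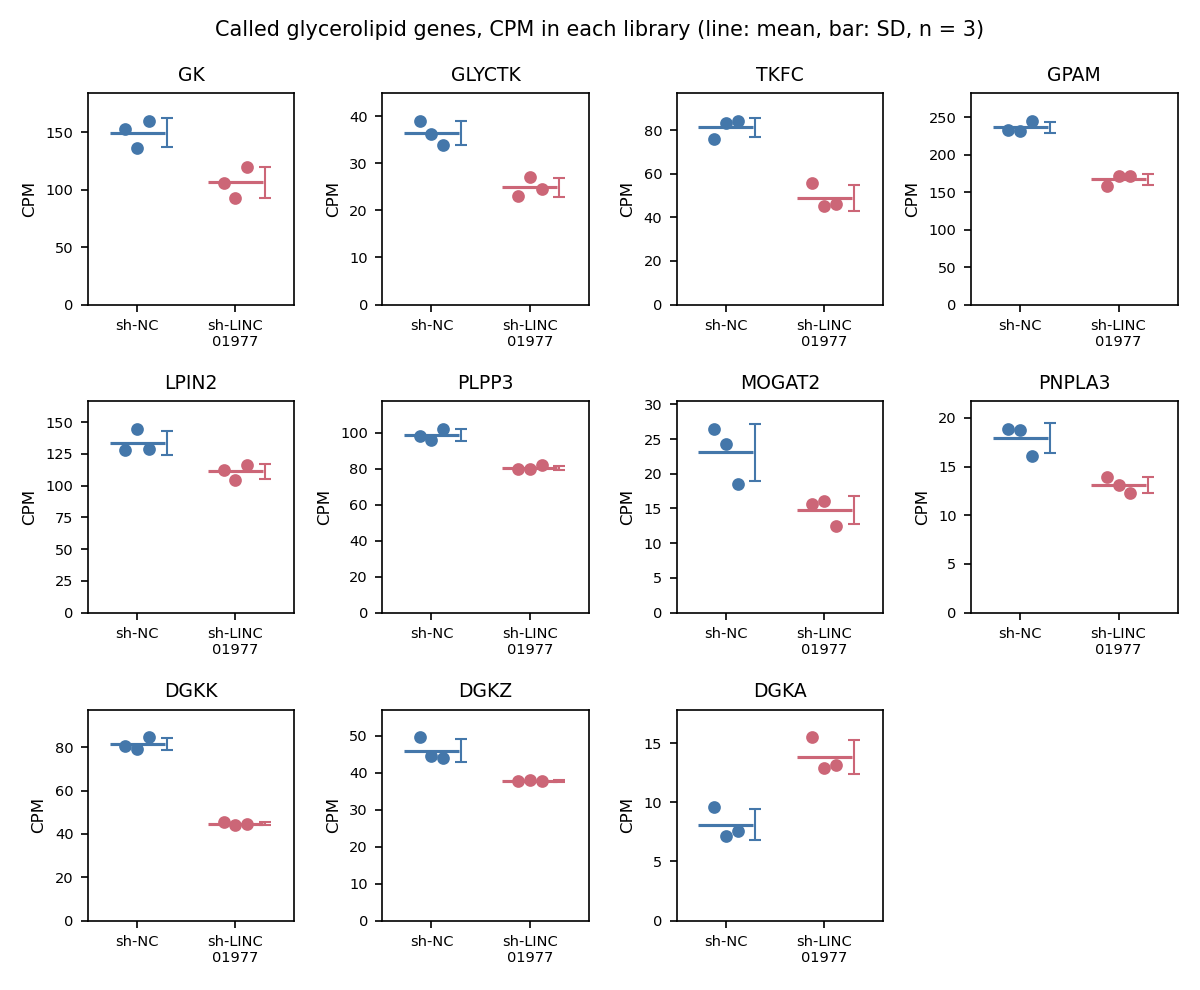
CPM in each library (points), mean (line) and SD (bar, n = 3) for the 11 called glycerolipid genes in sh-NC and sh-LINC01977, y axes from 0. In 10 genes every sh-LINC01977 point lies below every sh-NC point, and in DGKA above.

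The 10 members below the filter had at most 98 counts in any library and a mean of at most 0.0979 FPKM. LIPG, endothelial lipase, had 90, 98 and 83 counts in sh-NC and 76, 85 and 98 in sh-LINC01977. MGLL, the monoacylglycerol lipase, had 0 counts in all libraries but sh-LINC01977 2, which had 6. DGKH had 20, 8 and 27 counts in sh-NC and 68, 20 and 38 in sh-LINC01977, and AGPAT4 had 57, 26 and 14 against 30, 22 and 16. The others, GPAT2, LPL, PNLIPRP2, DGKB, MBOAT2 and PLPP2, had between 0 and 16 counts in every library, too few for a comparison.

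Genes around the pathway were read from 2 lists, which were chosen with earlier results of these data known. Their called shares are therefore no independent comparison with all tested genes. Of 24 listed genes of lipid droplets and very-low-density lipoprotein (VLDL) assembly, 18 were tested, 4 were lower and 1 higher, with a median log2 fold change of -0.06. These were 22.2% and 5.56% of the tested list, beside 8.07% and 7.05% of all tested genes. CIDEB, a droplet protein of VLDL maturation, had 19.0, 17.1 and 20.1 CPM in sh-NC and 9.10, 8.76 and 7.54 CPM in sh-LINC01977 (log2 fold change -1.15, SE 0.114, edgeR adjusted p = 0.00188). NOP9 and LTB4R2 lie opposite CIDEB, with mean counts of 10633.5 and 326.8 and log2 fold changes of 0.06 and 0.08. Without strand, their reads and those of CIDEB cannot be told apart where they overlap. MTTP, which loads triacylglycerol onto apolipoprotein B, had 12.7, 12.9 and 14.3 CPM in sh-NC and 7.76, 6.98 and 8.51 CPM in sh-LINC01977 (log2 fold change -0.78, edgeR adjusted p = 0.00705). Every library of these genes was lower in sh-LINC01977 than in sh-NC. The other calls were FITM2 and CAVIN1, lower with log2 fold changes of -0.26 and -0.16, and FAF2, higher with 0.18, and leaving out any 1 library ended these 3 calls, with log2 fold changes of -0.28 to -0.22 for FITM2, -0.18 to -0.15 for CAVIN1 and 0.17 to 0.19 for FAF2. PLIN2, the main droplet coat protein of liver cells, had 638, 826 and 551 CPM in sh-NC and 534, 546 and 431 CPM in sh-LINC01977, with no call (log2 fold change -0.42, edgeR adjusted p = 0.135). CIDEC, a droplet protein of the same family as CIDEB, had 7.99, 6.34 and 5.61 CPM in sh-NC and 10.05, 10.6 and 8.60 CPM in sh-LINC01977. All its sh-LINC01977 libraries were above all sh-NC libraries, without a call (log2 fold change 0.55, SE 0.165, edgeR adjusted p = 0.0697), and without sh-NC 1 it passed (0.71, adjusted p = 0.0450).

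Of 24 listed genes of glycerol transport, glycerol-3-phosphate and phospholipid synthesis, 21 were tested, 4 were lower and 1 higher, with a median log2 fold change of -0.02. These were 19.0% and 4.76% of the tested list, beside 8.07% and 7.05% of all tested genes. AQP3, a glycerol channel, had 5.05, 3.87 and 3.60 CPM in sh-NC and 12.1, 9.83 and 13.1 CPM in sh-LINC01977, a rise in every library (log2 fold change 1.49, SE 0.181, edgeR adjusted p = 0.00360). CHPT1, which makes phosphatidylcholine from diacylglycerol, had 109, 107 and 113 CPM in sh-NC and 78.8, 72.7 and 73.8 CPM in sh-LINC01977 (log2 fold change -0.54, edgeR adjusted p = 0.00192). GPD1, which makes glycerol-3-phosphate from dihydroxyacetone phosphate, had 37.1, 33.1 and 34.5 CPM in sh-NC and 22.6, 23.1 and 27.4 CPM in sh-LINC01977 (log2 fold change -0.52, edgeR adjusted p = 0.0160). The groups of these 3 genes did not overlap, and the call of GPD1 was lost without sh-NC 1 or sh-LINC01977 1 or 2 (-0.47, -0.47 and -0.48). PEMT and PCYT2, which act in phosphatidylcholine and phosphatidylethanolamine synthesis, were lower with log2 fold changes of -0.51 and -0.31. The call of PEMT was lost without any 1 library but sh-LINC01977 1 (-0.54 to -0.43), and that of PCYT2 without any 1 library but sh-NC 2 (-0.34 to -0.25). GPD1L, related to GPD1, had 10.3, 10.2 and 11.3 CPM in sh-NC and 8.25, 8.45 and 31.1 CPM in sh-LINC01977, with no call (log2 fold change 0.59, SE 0.519, edgeR adjusted p = 0.493). Without the high library, sh-LINC01977 3, its log2 fold change was -0.34.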

How the data were processed

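The authors extracted RNA with TRIzol, and sequencing was done on an Illumina HiSeq system. The authors deposited raw counts per gene, whole numbers without normalization, and FPKM values, counts scaled to transcript length and library total, in 1 table with KEGG terms. The submitters' processing notes name bcl2fastq 2.0, HISAT2, StringTie, DESeq2, limma and hg38 without roles. The annotation release and the use of strand are not given in the sources used here.

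Genes averaging 0.5 FPKM or more (13452) were kept, and their counts were scaled by TMM and tested with the quasi-likelihood method of edgeR 4.0.16 in R 4.3.3. Calls were made at a Benjamini-Hochberg adjusted p under 0.05. CPM used the TMM-scaled library sizes. Alternatives used DESeq2 1.42.0, limma 3.58.1 on log2(FPKM + 0.1) or log2(FPKM + 1), other scalings and filters, a replicate block, and each library left out. Same-group libraries differed by more than sampling noise.

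The members and lists were chosen with earlier results of these data known. Genes were named where they passed and their groups did not overlap, where they belong to the main hepatic enzymes, or where they had one of the 3 largest changes among the called genes of a neighbouring list (mean FPKM of at least 1). PLIN2, MTTP and LINC01977 were named whatever their result. Other named genes were chosen after their values were seen. All 45 members were in GENCODE 29, 41 with the same start and end, and 28 overlapped another listed gene.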

Additional observations from a re-analysis of the deposited data

How the results depend on the processing

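In all, 14 alternatives were tried. Over the 11 called members, all 153 alternative values had the direction given, and 109 kept an adjusted p under 0.05. These members were picked from the same libraries as called with groups that do not overlap. A kept direction was therefore nearly given in advance and is no separate support. The calls of DGKK, TKFC, GLYCTK, GPAM and PLPP3 held in every alternative. Those of DGKZ and LPIN2 were lost in 11 each, of MOGAT2 in 8, GK in 6, PNPLA3 in 5 and DGKA in 3. The number of lower members was 10, and 12 with DESeq2, where 11.0% of all tested genes were lower. It was 8 with library totals, 7 without a filter, 6 with limma on log2(FPKM + 0.1), 6 with limma on log2(FPKM + 1) and 5 to 7 with 1 library left out. The number of higher members was 1, 0 with a mean FPKM of at least 1, since DGKA is below it, and 0 to 1 with 1 library left out. The number past 2-fold was 1, 0 with library totals, either limma fit or the replicate block, and 0 to 1 with 1 library left out. The cause of these shifts was not tested.

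Over all tested genes, 948 were higher and 1085 lower. With library totals the counts were 1455 and 768, with limma 1269 and 729 (pseudocount 0.1) or 1285 and 734 (pseudocount 1), and with 1 library left out 549 to 669 higher and 627 to 738 lower. The members' median log2 fold change was -0.0416, 0.0234 with library totals, 0.0238 and 0.0176 with limma, and -0.089 to -0.00597 with 1 library left out. Calls in the lipid droplet list were 5, 8 with DESeq2, 2 without a filter and 2 to 4 with 1 library left out, and for the glycerol and phospholipid list and the regulators 2 to 5 and 2 to 4.

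Among uncalled members, the log2 fold change of DGAT1 was -0.0093 without a filter, -0.0021 with the replicate block and -0.0789 to 0.0991 with 1 library left out. That of AGPAT5 was 0.0234 with library totals, 0.1049 and 0.0845 with limma, 0.0653 with the replicate block and -0.4644 to 0.6273 with 1 library left out. DGAT2 ranged from -0.1614 to 0.2265 and PNPLA2 from -0.0028 to 0.072 with 1 library left out, as did GPAT4 from -0.089 to 0.0868, DGKG from -0.2881 to 0.0076, DGKQ from -0.0101 to 0.1543 and GLA from -0.0223 to 0.1711. LPIN3 was at 0.023 with library totals and 0.0212 and 0.0172 with limma, and the regulator PPARG at 0.0495, 0.0461 and 0.0392, and at -0.0652 to 0.0413 with 1 library left out. GPD1L ranged from -0.3442 to 0.8985 with 1 library left out. MOGAT3, PLIN2 and AGPAT3 passed with DESeq2 (adjusted p of 0.0362, 0.0372 and 0.0479), and CIDEC with DESeq2, library totals and both limma fits (adjusted p of 0.0198 to 0.0413).

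Deviations of same-numbered libraries correlated at -0.0286, 0.0174 and 0.0552, and those of differently numbered libraries at -0.0701 to 0.0532. These values show no clear pairing by number, but they cannot exclude that same-numbered libraries were prepared together. With the replicate block 8 members were lower and 1 higher, beside 754 and 636 of all tested genes. PLIN2 passed with the replicate block (adjusted p of 0.0425), and DGKZ and LPIN2 did not.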

Other observations

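Of 15 listed regulators of triglyceride genes, 13 were tested, 4 were lower in sh-LINC01977 and 0 higher, with a median log2 fold change of -0.22, beside 8.07% lower over all tested genes. This list too was chosen with earlier results of these data known. In edgeR 1 regulator, FOXO1, was higher at an unadjusted p under 0.05 (log2 fold change 0.17, adjusted p = 0.154), and DESeq2 also called 0 higher. NR1H4, the bile acid receptor, had 93.5, 102 and 106 CPM in sh-NC and 33.6, 35.7 and 42.5 CPM in sh-LINC01977 (log2 fold change -1.43, edgeR adjusted p = 8.71e-04). MLXIPL, the carbohydrate-responsive transcription factor of lipid synthesis, had 90.2, 84.7 and 73.2 CPM in sh-NC and 49.2, 37.9 and 55.9 CPM in sh-LINC01977 (log2 fold change -0.80, edgeR adjusted p = 0.0166). No library of one group overlapped the other in these genes. The call of MLXIPL was lost without sh-NC 1, sh-NC 2 or sh-LINC01977 1, with log2 fold changes of -0.73, -0.78 and -0.82. PPARGC1A, a coactivator of fasting metabolism, had a log2 fold change of -1.02 (edgeR adjusted p = 0.00287). CEBPA, a hepatocyte transcription factor, had one of -0.22 (edgeR adjusted p = 0.0230), and its call was lost without sh-NC 1 or 2 or sh-LINC01977 2 or 3, with log2 fold changes of -0.22, -0.21, -0.20 and -0.21. SREBF1 and PPARG, regulators of fatty acid synthesis and fat storage, had log2 fold changes of -0.12 and -0.02 with edgeR adjusted p of 0.384 and 0.926. ANGPTL8, a secreted regulator of lipoprotein lipase, had 19.5, 29.4 and 17.4 CPM in sh-NC and 19.2, 16.9 and 13.8 CPM in sh-LINC01977, with no call (log2 fold change -0.41, edgeR adjusted p = 0.260) and a log2 fold change of -0.15 without sh-NC 2.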
